A study of Mus musculus with 6 samples.

Results

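The genes described here are 10 mouse genes of the peroxisome proliferator-activated receptor (PPAR) pathway and of lipid uptake: the nuclear receptor genes *Pparg*, *Ppard* and *Rxra*, the coactivator gene *Ppargc1b*, the lipid uptake genes *Cd36*, *Msr1* and *Lpl*, the fatty acid-binding protein genes *Fabp4* and *Fabp5*, and the lipid droplet gene *Plin2*. They were chosen by name, and all 10 were found among the 24445 genes of the count table. Expression was measured by RNA-seq in bone marrow-derived macrophages (BMDMs) of female mice, which are marrow precursors matured in medium conditioned by L929 cells. The AclyM-KO group held 3 libraries from C57Bl/6J mice in which exon 9 of *Acly* is floxed and cut out by a Cre recombinase under *Lyz2*, a gene of the myeloid lineage. The Ctrl group held 3 libraries from littermates with floxed *Acly* and no Cre, which the sample labels call WT. All 6 cultures received IL-4, and naive macrophages were not analysed here, so no value below is a response to IL-4. The ages of the marrow donors are not given in the sources used here. The study describes its replicates both as biological replicates and as technical replicates from pooled mice, so the p-values below may measure only the spread between libraries.

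The comparison asks whether loss of ATP citrate lyase, the enzyme that makes cytosolic acetyl-CoA from citrate, came with other levels of these genes. *Acly* itself stood at 334 ± 14.4 CPM (read counts scaled to library size, mean ± SD, n = 3) in Ctrl and 138 ± 6.63 CPM in AclyM-KO, or 41.4% of Ctrl, and its counts include the exons that are not deleted. Between 12151975 and 15587283 reads per library were counted on the transcripts used. Of these, the 10 genes took 0.724% to 0.81% in the Ctrl libraries and 0.829% to 0.885% in the AclyM-KO libraries. Most of these reads came from *Lpl* and *Cd36*, with 52889 and 26030 of 106697 in Ctrl replicate 1. The share thus says little about the less abundant genes. Macrophage markers were abundant, and the 7 markers tested summed to 10120 to 10530 CPM in Ctrl and 9916 to 10390 CPM in AclyM-KO. Of the 7 adipocyte markers, 5 (*Lep*, *Plin1*, *Cidec*, *Retn* and *Cfd*) had 0 counts in every library.

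PPARs are nuclear receptors that bind fatty acids and their derivatives and regulate genes as heterodimers with retinoid X receptors such as RXRα. PGC-1β, the product of *Ppargc1b*, is a transcriptional coactivator that works with them. In macrophages, IL-4 acting through STAT6 is known to raise PPARγ and PGC-1β, and genes of lipid uptake, binding and storage are among the known PPAR targets. Lipids from outside the cell can enter as fatty acids freed by lipoprotein lipase or as modified lipoproteins taken up by scavenger receptors. Stored lipids are kept in droplets coated by perilipins.

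Of the 10 genes, *Cd36* and *Plin2* had the largest increases and *Rxra* the largest decrease in AclyM-KO, so their promoters are printed. They come from the RefSeq promoter table for GRCm38.p6, which covers 5 of the 10 genes with 8 promoters, and each runs 5′ to 3′ on the strand of its gene from 250 bases before to 50 bases after the annotated start. The *Cd36* promoter is chr5:17835847-17836146 on the minus strand, the *Plin2* promoter is chr4:86670010-86670309 on the minus strand and the *Rxra* promoter is chr2:27676951-27677250 on the plus strand. Capitals mark AGGTCA on either strand, the hexamer bound by nuclear receptors of this class.
Cd36: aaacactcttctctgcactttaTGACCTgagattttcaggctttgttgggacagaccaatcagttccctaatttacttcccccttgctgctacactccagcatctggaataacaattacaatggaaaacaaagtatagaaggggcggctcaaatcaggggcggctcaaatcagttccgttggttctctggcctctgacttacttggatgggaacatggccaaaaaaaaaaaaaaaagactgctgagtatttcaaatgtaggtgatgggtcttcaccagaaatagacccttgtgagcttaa
Plin2: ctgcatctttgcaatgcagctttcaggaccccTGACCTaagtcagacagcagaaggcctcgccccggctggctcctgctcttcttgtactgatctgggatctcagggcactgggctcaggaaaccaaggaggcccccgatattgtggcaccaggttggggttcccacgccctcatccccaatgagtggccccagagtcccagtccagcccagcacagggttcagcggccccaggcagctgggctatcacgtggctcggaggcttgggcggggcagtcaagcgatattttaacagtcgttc
Rxra: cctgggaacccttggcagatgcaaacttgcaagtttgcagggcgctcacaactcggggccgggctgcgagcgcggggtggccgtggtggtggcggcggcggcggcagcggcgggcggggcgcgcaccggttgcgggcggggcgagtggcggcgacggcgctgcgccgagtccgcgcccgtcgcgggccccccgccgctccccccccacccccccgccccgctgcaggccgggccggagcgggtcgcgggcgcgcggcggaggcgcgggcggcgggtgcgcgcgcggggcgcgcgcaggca

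The hexamer occurred once in the *Cd36* promoter, at position -228 from the start, and once in the *Plin2* promoter, at position -218. The *Rxra* promoter printed held no match, although a second annotated *Rxra* promoter held 2, and 83.0% of its bases were G or C, against 43.0% for *Cd36* and 60.7% for *Plin2*. The hexamer occurred in 5 of the 8 promoters of these genes and in 16.3% of all 32851 promoters in the table. A direct repeat of AGGNCA with 1 base between the copies (DR1, the kind of site that PPAR-RXR dimers bind, searched on both strands and able to overlap the hexamer) occurred in 0 of the 8 and in 0.381% of all promoters. TTC followed by GAA after 4 bases, the spacing preferred by STAT6, occurred only in the *Cd36* promoter among the 8, beginning 20 bases after the start, and in 6.95% of all promoters. The annotated start of this *Cd36* promoter lies 200 bases from the nearest start of the *Cd36* transcripts counted here, whereas those of *Plin2* and *Rxra* lie within 1 base. Enhancers and other distant elements were not searched.

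In AclyM-KO, 4 of the 10 genes were higher (*Cd36*, *Plin2*, *Fabp5* and *Fabp4*) and 1 was lower (*Rxra*), with an edgeR adjusted p-value under 0.05. Among all 12023 genes tested, 12.4% were higher and 12.6% lower by the same rule. None of the 10 genes had a log2 fold change with a size above 0.58, the limit the study used, in edgeR, DESeq2 or limma-voom. Of all genes tested, 5.55% passed both limits in edgeR, a share at which none of 10 is not unusual. Without adjustment, edgeR gave a p-value under 0.05 for 4 genes with higher and 2 genes with lower values. With every size under the limit of 0.58, none of these could pass it. The 95% intervals of all 10 log2 fold changes lay within this limit, the widest being that of *Ppargc1b*. The median log2 fold change was 0.084 over the 10 genes and 0.0014 over all genes tested. The fitted log2 fold changes of all 4 receptor and coactivator genes were below 0 and those of all 6 genes of uptake, binding and storage were above 0, but 3 of the former and 2 of the latter did not pass the test. Over all 12023 genes tested, 6043 were above 0 and 5980 below. Of the 80 related genes tested, described further below, 39 were above 0 and 41 below.

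**Figure D1:**
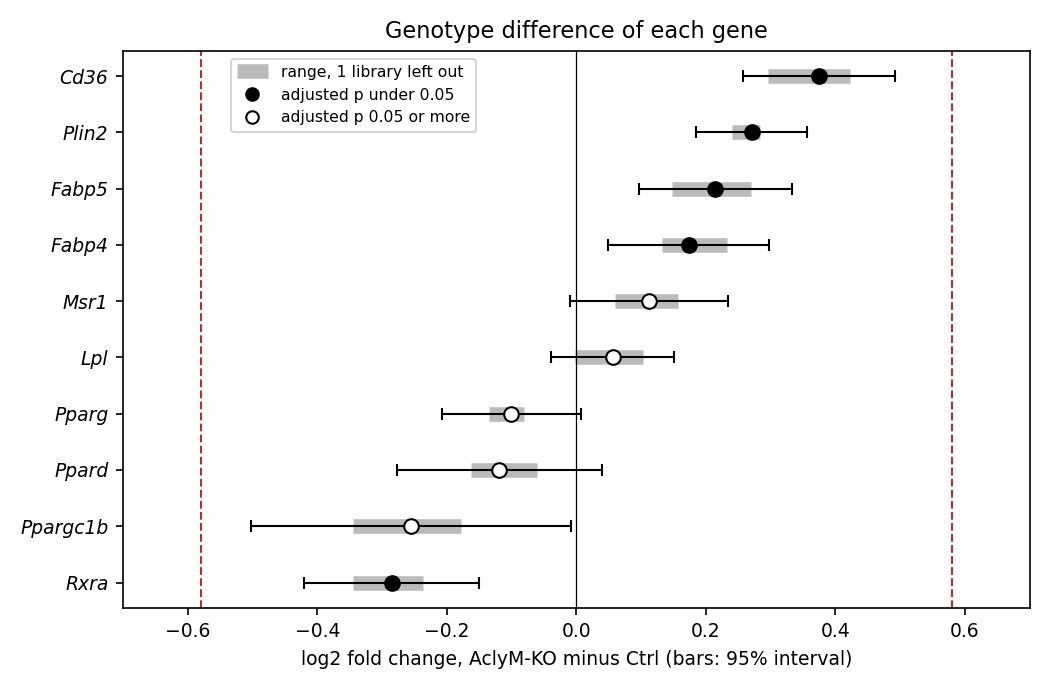
Log2 fold change between AclyM-KO and Ctrl on the horizontal axis for each of the 10 genes, with the 95% interval as a thin bar, the range of values with 1 library left out as a grey band, and dashed lines at 0.58 on either side. Filled points mark the 5 genes with an adjusted p-value under 0.05, from *Cd36* at 0.37 to *Rxra* at -0.29, and no interval reaches a dashed line.

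*Rxra* encodes RXRα, the partner of PPARs and of other nuclear receptors. It was at 89.6, 77.2 and 84.9 CPM in Ctrl replicates 1, 2 and 3 and at 64.7, 68.9 and 73.1 CPM in the AclyM-KO replicates. Every AclyM-KO library was below every Ctrl library. The means were 83.9 ± 6.25 and 68.9 ± 4.19 CPM (SD, n = 3 each). The log2 fold change was -0.29 with an SE of 0.0633 (edgeR adjusted p = 0.00391). In the 6 fits that each dropped 1 library it lay between -0.35 and -0.24, and the adjusted p-value stayed under 0.05 in all 6. The gene lies on chromosome 2 from 27676440 to 27762957 on the plus strand (GENCODE M21, GRCm38). The related receptor gene *Rxrb* gave 33.8 ± 1.67 CPM in Ctrl and 35.3 ± 3.19 CPM in AclyM-KO (SD, n = 3 each), with a 95% interval of the log2 fold change from -0.10 to 0.23, and *Rxrg*, the remaining RXR gene, had at most 1 count in a library.

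*Pparg*, which encodes the PPAR known for its role in fat cells and alternatively activated macrophages, was at 119.45, 129 and 126 CPM in the Ctrl replicates and at 119.7, 116 and 113 CPM in the AclyM-KO replicates. The groups overlapped by a narrow margin, as Ctrl replicate 1 lay just below AclyM-KO replicate 1. The log2 fold change of -0.10 (95% interval -0.21 to 0.0074) did not pass the test (edgeR adjusted p = 0.166). *Ppard*, which encodes the more widely expressed PPARδ, was at 38.2, 34.5 and 36.3 CPM in Ctrl and at 35.5, 30.8 and 34.3 CPM in AclyM-KO. Its groups also overlapped, and the log2 fold change was -0.12 (95% interval -0.28 to 0.040, edgeR adjusted p = 0.269). *Ppara*, the gene of the third PPAR, had 0 counts in 5 libraries and 1 count in AclyM-KO replicate 1. The ratio of *Pparg* to *Ppard*, each as CPM per kb of transcript, was 4.82 to 5.75 in Ctrl and 5.09 to 5.82 in AclyM-KO, with overlapping groups (two-sided exact permutation test, p = 0.90).

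The coactivator gene *Ppargc1b* had 212, 195 and 165 counts in the Ctrl replicates and 167, 203 and 165 in the AclyM-KO replicates, the fewest of the 10 genes. Scaled to library size, these were 14.3, 15.9 and 12.5 CPM in Ctrl and 11.4, 13.1 and 11.3 CPM in AclyM-KO, and only AclyM-KO replicate 2 lay above the lowest Ctrl library. The log2 fold change of -0.26 (SE 0.116) had an unadjusted p of 0.0440 in edgeR and an adjusted p of 0.125, and its 95% interval ran from -0.50 to -0.0078. The difference thus did not pass the test after adjustment over all genes tested. *Ppargc1a*, which encodes the related coactivator PGC-1α, had at most 4 counts in any library.

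**Figure D2:**
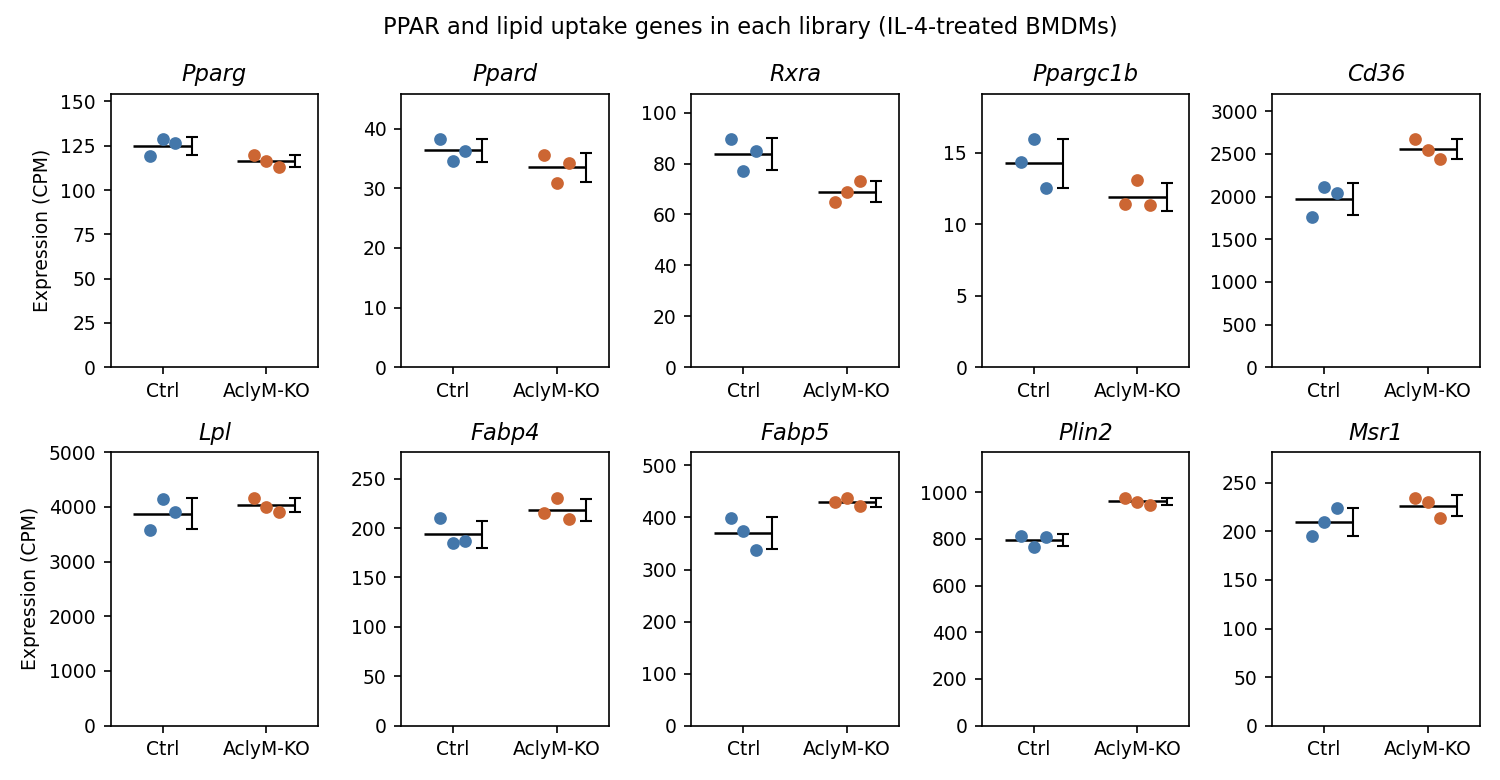
Expression in CPM on the vertical axis for the 10 genes, with 1 point per library, the mean as a horizontal line and the SD as an error bar (n = 3 each), and each axis starting at 0. The AclyM-KO points lie above all Ctrl points for *Cd36*, *Fabp5* and *Plin2*, below all Ctrl points for *Rxra*, and overlap the Ctrl points in the other panels. The share of all genes tested whose groups do not overlap was not counted, so no excess among the 10 genes can be read from this.

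*Cd36* encodes a scavenger receptor and fatty acid translocase that takes up oxidised lipoproteins and long-chain fatty acids. It was at 1759, 2113 and 2045 CPM in the Ctrl replicates and at 2674, 2549 and 2444 CPM in the AclyM-KO replicates. The groups did not overlap, and Ctrl replicate 1 stood below the other Ctrl libraries. The means were 1972 ± 188 and 2556 ± 115 CPM (SD, n = 3 each). *Cd36* thus rose 1.30-fold, or by 0.37 on the log2 scale with an SE of 0.0551 (edgeR adjusted p = 1.48e-04). Without Ctrl replicate 1 the increase was at its smallest, 0.30, and it kept an adjusted p-value under 0.05 in all 6 fits with a library left out. *Cd36* lies on chromosome 5 from 17781690 to 17888801 on the minus strand. Of its 5 transcript rows, the lowest had at least 99.97% of the counts of the highest, so that the transcripts could not be told apart.

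*Msr1* encodes the class A scavenger receptor, which binds modified lipoproteins. It was at 195, 209.6 and 224 CPM in Ctrl and at 235, 229.9 and 214 CPM in AclyM-KO. The groups overlapped, and the log2 fold change of 0.11 (95% interval -0.010 to 0.23) did not pass the test (edgeR adjusted p = 0.173). The ratio of *Cd36* to *Msr1*, each as CPM per kb, was 4.80 to 5.36 in Ctrl and 5.90 to 6.07 in AclyM-KO without overlap (two-sided exact permutation test, p = 0.10, the smallest that 3 against 3 libraries allow).

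*Lpl* encodes lipoprotein lipase, which frees fatty acids from the triglycerides of lipoproteins, and was the gene of the 10 with the most reads. It was at 3573, 4146 and 3903 CPM in the Ctrl replicates and at 4168, 4004 and 3910.5 CPM in the AclyM-KO replicates. Ctrl replicate 1 was the lowest library and the other Ctrl libraries lay among or close to the AclyM-KO values. The log2 fold change of 0.056 (95% interval -0.038 to 0.15) did not pass the test (edgeR adjusted p = 0.393). It was -0.0015 without Ctrl replicate 1 and 0.10 without Ctrl replicate 2, the latter with an edgeR adjusted p of 0.0116, so its sign and its call depended on single Ctrl libraries. The ratio of *Lpl* to *Cd36* per kb was 1.24 to 1.32 in Ctrl and 1.01 to 1.04 in AclyM-KO without overlap (two-sided exact permutation test, p = 0.10). Of the 4 ratios compared, those of *Cd36* to *Msr1* and of *Lpl* to *Cd36* separated the groups. Both hold *Cd36*, whose own CPM separated the groups, so they are not results apart from its increase. None of the 4 ratios could reach a p under 0.05 in this design.

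*Fabp4* and *Fabp5* encode cytosolic proteins that carry fatty acids, of which FABP4 is the form abundant in fat cells and macrophages and FABP5 the form first described in skin. They lie close together on chromosome 3, *Fabp5* from 10012548 to 10016607 on the plus strand and *Fabp4* from 10204088 to 10208576 on the minus strand (GENCODE M21, GRCm38). *Fabp5* was at 399, 374 and 338 CPM in the Ctrl replicates and at 429, 438 and 421 CPM in the AclyM-KO replicates, without overlap. The means were 370.1 ± 30.9 and 429 ± 8.43 CPM (SD, n = 3 each). *Fabp5* rose by 0.21 on the log2 scale with an SE of 0.0558 (edgeR adjusted p = 0.0108). This call was lost without Ctrl replicate 3 (0.15, edgeR adjusted p = 0.0598) or without AclyM-KO replicate 2 (0.20, edgeR adjusted p = 0.0629). *Fabp5* has a processed pseudogene, *Fabp5l2*, in the annotation, and how reads that match both were counted is not given in the sources used here, so its level is uncertain to that extent.

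*Fabp4* was at 209.72, 185 and 187 CPM in the Ctrl replicates and at 215, 231 and 209.35 CPM in the AclyM-KO replicates. The groups overlapped, because AclyM-KO replicate 3 lay just below Ctrl replicate 1. The means were 194 ± 13.9 and 219 ± 11.1 CPM (SD, n = 3 each). *Fabp4* rose by 0.17 on the log2 scale with an SE of 0.0584 (edgeR adjusted p = 0.0407). Among the 6 fits with a library left out, only that without Ctrl replicate 1 kept this call, so it rested on which libraries were used. With the replicate number as a block the adjusted p was 0.0590. The ratio of *Fabp5* to *Fabp4* per kb was 1.64 to 1.84 in Ctrl and 1.72 to 1.83 in AclyM-KO (two-sided exact permutation test, p = 0.70).

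*Plin2* encodes perilipin 2, the coat protein of lipid droplets in cells other than fat cells. It was at 812, 766 and 809 CPM in the Ctrl replicates and at 976, 958 and 944.5 CPM in the AclyM-KO replicates. The groups were apart, and each was narrow. The means were 795 ± 25.7 and 959.7 ± 15.9 CPM (SD, n = 3 each). *Plin2* rose 1.21-fold, or by 0.27 on the log2 scale with an SE of 0.0402 (edgeR adjusted p = 1.59e-04). In the 6 fits that each dropped 1 library the increase lay between 0.24 and 0.28, always with an adjusted p-value under 0.05. *Plin2* lies on chromosome 4 from 86648386 to 86670060 on the minus strand.

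Expression levels were compared between genes as CPM per kb of the transcript counted. In Ctrl the order was *Lpl* (942 ± 70.1 CPM per kb), *Cd36* (737 ± 70.2), *Plin2* (421 ± 13.6), *Fabp5* (375 ± 31.3), *Fabp4* (216 ± 15.5), *Msr1* (147 ± 10.2), *Pparg* (58.8 ± 2.28), *Rxra* (17.1 ± 1.28), *Ppard* (11.1 ± 0.57) and *Ppargc1b* (3.90 ± 0.469), each as mean ± SD of 3 libraries. With these transcripts, all 6 uptake, binding and storage genes stood above the receptors and the coactivator. Among 11766 tested genes with a known transcript length, *Lpl* was at the 99.5th and *Cd36* at the 99.4th percentile in Ctrl, *Pparg* at the 90.3rd and *Ppargc1b* at the 29.8th. Neighbours in this order did not overlap within Ctrl, and the same order was seen in each of the 6 libraries. In AclyM-KO, *Lpl* and *Cd36* were the only neighbours with overlapping ranges. That overlap depended on the transcript assumed for *Cd36*. With its longest annotated transcript (3399 instead of 2677 bases) the Ctrl level of *Cd36* would be 580 CPM per kb. Every AclyM-KO library of *Cd36* would then lie below those of *Lpl*. The place of *Msr1* also depended on the transcript assumed. With the longer annotated transcript of *Msr1* (3636 instead of 1424 bases) its Ctrl level would be 57.6 CPM per kb, below *Pparg* at 58.8 CPM per kb or, with the shortest *Pparg* transcript, 70.7 CPM per kb. With the shortest transcript of *Rxra* (1952 instead of 4905 bases) its level would be 43.0 CPM per kb, still between *Pparg* and *Ppard*.

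**Figure D3:**
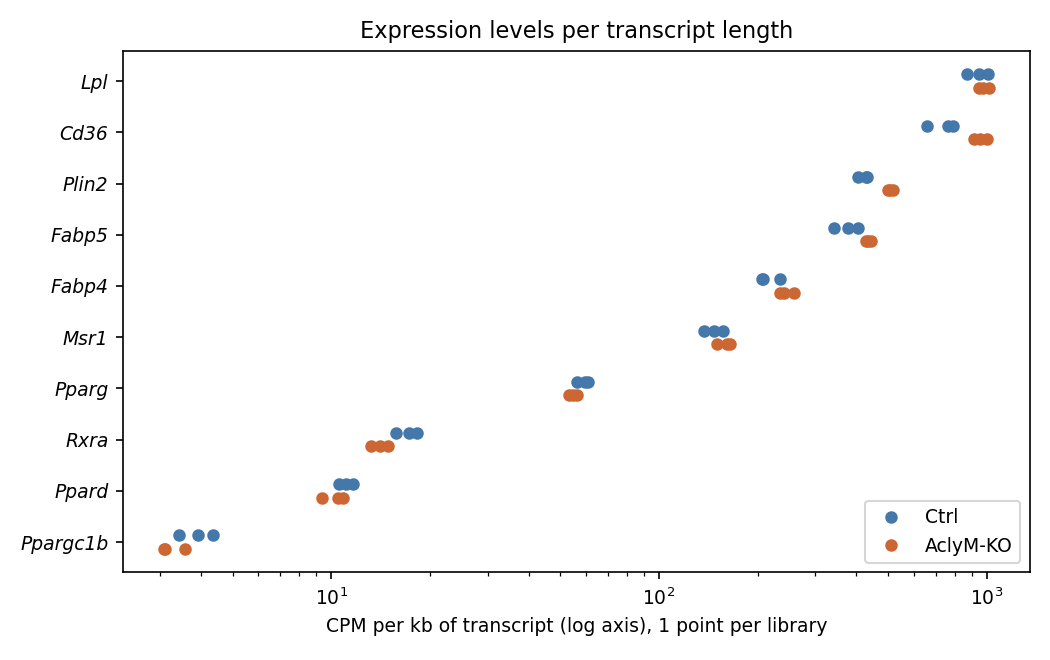
Expression level as CPM per kb of transcript on a logarithmic horizontal axis, with 1 point per library in each group and genes ordered by their Ctrl mean. The points span from about 3.09 CPM per kb for *Ppargc1b* to 1013 CPM per kb for *Lpl*. With the transcript lengths used, the AclyM-KO points of *Cd36* and *Lpl* share a range.

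Related genes were summarised in 6 hand-written lists that hold none of the 10 genes. Together the lists held 111 genes, of which 80 passed the filter on low counts, and 12 of these were higher and 14 lower in AclyM-KO, while 54 did not pass the test. Without AclyM-KO replicate 2, 8 genes were lower, and the lower calls over all genes fell from 1511 of 12023 to 972 of 12146. The median log2 fold change of the 80 genes was -0.0028 in all libraries. These shares of 80, and the counts of each list below, are to be read against the 12.4% and 12.6% of all genes given above.

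Among the PPAR partners and coregulators, 12 of 15 genes were tested, 0 were higher and 2 lower (median 0.0083). Without adjustment edgeR gave 1 gene with a higher value and p under 0.05, and DESeq2 and limma-voom called 0 higher as well. The genes that fell were *Ncoa2* (-0.25, edgeR adjusted p = 0.00530) and *Ncoa3* (-0.16, edgeR adjusted p = 0.0249), which encode steroid receptor coactivators. Other PPAR target genes gave 1 higher and 2 lower of 22 tested (median -0.049). *Cpt1a*, which encodes the enzyme that admits long-chain fatty acids to mitochondrial oxidation, rose from 94.7 ± 2.24 to 112 ± 3.29 CPM (SD, n = 3 each, log2 fold change 0.24, edgeR adjusted p = 0.00247). *Lipe*, the gene of hormone-sensitive lipase, fell by 0.46 and *Etfdh*, whose product passes electrons from fatty acid oxidation to the respiratory chain, fell by 0.20 on the log2 scale (edgeR adjusted p = 0.00116 and 0.0167). *Angptl4*, a well known PPAR target whose product inhibits lipoprotein lipase, had 8 to 36 counts per library and a log2 fold change of 0.68 with a 95% interval from -0.12 to 1.48 (edgeR adjusted p = 0.205). Of the 10 target genes that were too low to be tested, *Pdk4*, *Plin1*, *Plin5* and *Cidec*, named after their values were seen, had 0 counts in every library.

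Among the genes of fatty acid transport, binding and activation, 3 of 12 tested were higher and 0 lower (median 0.13). One gene with a lower value had an unadjusted edgeR p under 0.05, and DESeq2 and limma-voom called 0 lower. *Acsl3*, which encodes an acyl-CoA synthetase of lipid droplets and endoplasmic reticulum, rose from 112 ± 4.995 to 162 ± 6.46 CPM (SD, n = 3 each, 0.54 on the log2 scale, edgeR adjusted p = 2.98e-06). The acyl-CoA-binding protein gene *Dbi* rose by 0.17 and the acyl-CoA synthetase gene *Acsl5* by 0.16 on the log2 scale (edgeR adjusted p = 0.0231 and 0.0346). Of the 5 other fatty acid-binding protein genes in the list, only *Fabp3* passed the filter, with 18 to 36 counts per library and a log2 fold change of 0.58 (edgeR adjusted p = 0.123), and it was chosen for naming after its values were seen.

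Of the other scavenger and lipoprotein receptors, 4 of 17 tested were higher and 5 lower (median -0.044). *Lrp8*, which encodes a lipoprotein receptor, rose from 11.3 ± 1.42 to 21.6 ± 1.08 CPM (SD, n = 3 each, 0.93 on the log2 scale, edgeR adjusted p = 1.17e-05). *Scarf1* and *Cxcl16*, which encode scavenger receptors for modified lipoproteins, fell by 0.70 and 0.68 on the log2 scale (edgeR adjusted p = 6.62e-04 and 1.45e-04). *Scarb1*, the gene of the HDL receptor SR-BI and a relative of *Cd36*, was at 139 ± 7.12 CPM in Ctrl and 141 ± 6.94 CPM in AclyM-KO (SD, n = 3 each), with a 95% interval of the log2 fold change from -0.098 to 0.14.

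Of the lipid droplet genes and lipases, 2 of 13 tested were higher and 4 lower (median -0.037). *Plin3*, the only other perilipin gene that passed the filter, fell from 173 ± 1.70 to 138 ± 2.52 CPM (SD, n = 3 each, -0.32 on the log2 scale, edgeR adjusted p = 1.29e-04), the opposite direction to *Plin2*. *Hilpda*, whose product inhibits adipose triglyceride lipase, fell by 1.56, and *Abhd5*, whose product activates the same lipase, rose by 0.31 on the log2 scale (edgeR adjusted p = 4.26e-06 and 4.40e-04). The gene of that lipase itself, *Pnpla2*, named after its values were seen, fell from 120.3 to 103 CPM (-0.22 on the log2 scale, edgeR adjusted p = 0.00810). *Dgat2*, the other gene of this list that rose, was also named after its values were seen. It had only 16 to 42 counts per library and a log2 fold change of 1.11 (edgeR adjusted p = 0.00481). Of the regulators and relatives of LPL, 2 of 9 tested were higher and 2 lower (median -0.012). The genes that fell were *Apoe*, the gene of a lipoprotein constituent, from 1366 ± 129 to 797 ± 42.4 CPM (SD, n = 3 each, edgeR adjusted p = 2.18e-07), and *Furin*, which encodes a protease that cleaves and inactivates LPL (-0.15 on the log2 scale, edgeR adjusted p = 0.0265). The genes that rose, *Lipc* and *Lipg*, were chosen for naming after their values were seen, encode lipases related to LPL and had at most 1.79 CPM on average in either group. *Gpihbp1*, whose product holds LPL on the vessel wall, had 0 counts in every library.

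**Figure D4:**
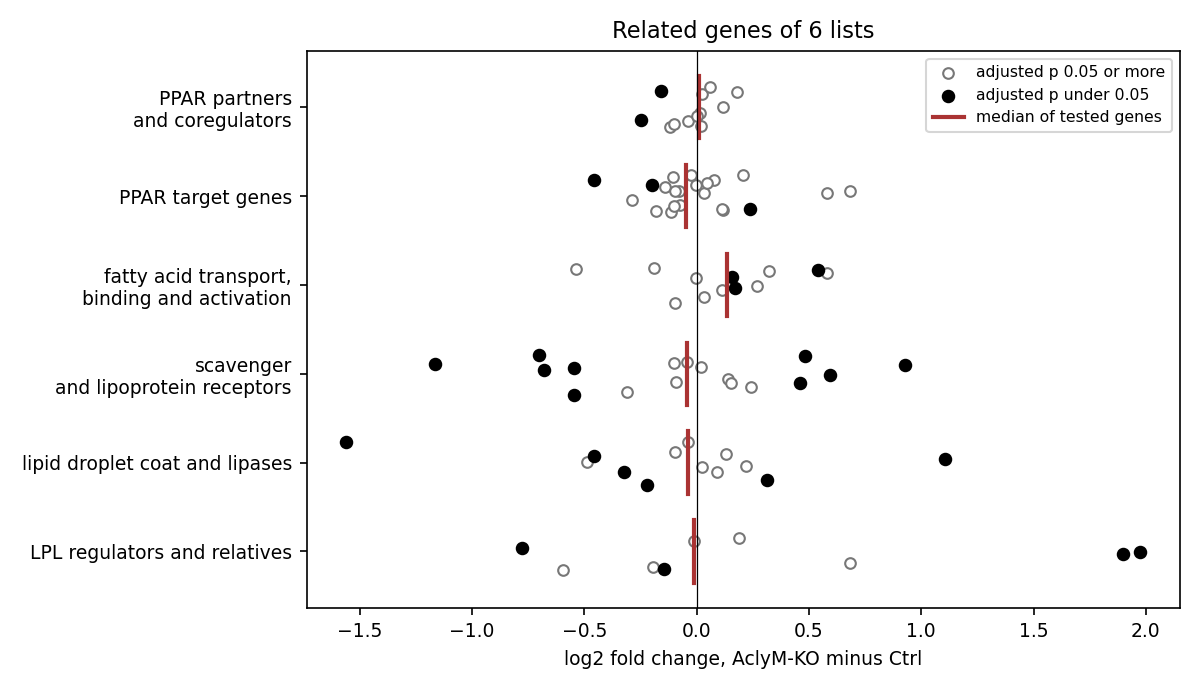
Log2 fold change between AclyM-KO and Ctrl on the horizontal axis for the tested genes of the 6 lists (a gene of 2 lists is drawn in both), with filled points for an adjusted p-value under 0.05 and a vertical bar at each median. The medians lie between -0.049 and 0.13. Filled points stand on both sides of 0 in 4 of the lists. The 2 filled points of 12 in the partners lie below 0, and the 3 of 12 in fatty acid transport lie above 0. Over all genes tested, 12.4% were higher and 12.6% lower.

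Some markers of macrophages and of other cells also differed between the groups, and their part in the results above was not tested. The 9 neutrophil markers summed to 195 to 214.5 CPM in Ctrl and 158 to 175 CPM in AclyM-KO, nearly all from *Csf3r*, the 1 called lower. The 2 called higher, opposite to the sum, were *S100a8* (mean 2.95 CPM in Ctrl, 5.33 in AclyM-KO) and *S100a9* (5.61 and 8.44 CPM). *Ly6g*, *Elane* and *Mpo* had no more than 5 counts per library. The 7 dendritic cell markers summed to at most 5.08 CPM in any library, with 1 called higher, and the 7 fibroblast and 7 lymphocyte markers to at most 1.51 and 0.743 CPM. The adipocyte list summed to 19.9 to 26.96 CPM in Ctrl and 17.8 to 19.1 CPM in AclyM-KO, with 0 of 2 tested called by edgeR (1 had an unadjusted p under 0.05), and nearly all of it came from *Adipoq*. Of the macrophage markers, *Adgre1* was higher by 0.33 and *Csf1r*, *Itgam* and *Mertk* were lower by -0.20, -0.28 and -0.73 on the log2 scale (edgeR adjusted p at most 0.00366). Fewer cells of a kind and less RNA per cell cannot be told apart in these bulk samples.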

How the data were processed

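RNA-seq libraries of IL-4-treated BMDMs (3 AclyM-KO, 3 Ctrl) were strand-specific and prepared from mRNA. According to the submitters' processing notes and the methods, the authors used CASAVA 1.8.2 and aligned reads to mm10 with STAR 2.5.2b. The deposited values are raw read counts for each RefSeq transcript, and the counting program is not given in the sources used here. The 35745 rows were matched to symbols by RefSeq accession (GRCm38.p6, 35435 rows), then by GENCODE M21 (193 rows). The other 117 rows held 0.370% to 1.38% of counts and were dropped. For each gene the row with the highest total was used, 22 rows being listed for the 10 genes. Exons of none of the 10 genes overlap those of another annotated gene.

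Genes were filtered with filterByExpr, scaled by TMM and tested between genotypes in edgeR 4.0.16 (R 4.3.3), adjusting over all genes tested with the Benjamini-Hochberg method. The limit on the log2 fold change follows the study. Standard errors are the log2 fold change divided by the root of F. The common biological coefficient of variation was 0.0588. Library pairs within a group had a chi-square per gene of 2.32 to 7.46, above counting noise. DESeq2 1.42.0 and limma 3.58.1 were alternatives, beside another scaling, other filters, summed rows, a replicate block and removal of each library. The fitting code was tested on simulated data. Named genes were the 10 genes, *Acly*, 7 relatives fixed by name (1 of them is not reported here) and, per list, up to 4 genes with the largest change among those that passed the test and had 50 or more counts throughout the group with the higher level. The genes and lists were chosen with earlier results of these data known, so they are no independent support.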

Additional observations from a re-analysis of the deposited data

How the results depend on the processing

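Of the 10 log2 fold changes recomputed under 7 other settings, 68 of 70 values kept their direction and their side of the threshold, and the other 2 were *Fabp4* losing its call with summed rows or a replicate block. With a library left out, 51 of 60 values did so. The sign of *Lpl* changed, its range being -0.0015 to 0.10, and *Fabp4* and *Fabp5* lost their calls in 5 and 2 fits. The number of the 10 genes called higher ranged from 2 to 4 with a library left out, the 2 without Ctrl replicate 3 or AclyM-KO replicate 2, and was 3 with the replicate block, whereas 1 gene was called lower in every fit. Without Ctrl replicate 3 and AclyM-KO replicate 2 in turn, higher calls over all genes tested were 1234 and 1002, against 1485 in all libraries. The number of related genes called lower ranged from 8 to 16, the lowest without AclyM-KO replicate 2, against 14 in all libraries. In that fit the lower calls over all genes fell from 1511 to 972. No gene of the 10 passed the fold limit in any fit, the largest size being 0.42 for *Cd36* without Ctrl replicate 2. The glmTreat test against this limit called none, which follows from sizes below the limit. The replicate numbers gave no sign of pairing. Same-numbered libraries had correlations of -0.0651, 0.0498 and -0.0314 between their deviations from the group means, and a best match for 1 of 3. With 3 libraries a group, these values cannot exclude a pairing. The causes of these shifts were not tested. The design has 3 libraries a group, which limits exact permutation tests to p of 0.10.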

Other observations

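*Adipoq*, the gene of the fat cell hormone adiponectin and a known PPARγ target, had 223 to 385 counts in every library, 26.01, 18.2 and 19.5 CPM in the Ctrl replicates and 16.9, 17.6 and 18.1 CPM in the AclyM-KO replicates, while *Lep*, *Plin1*, *Cidec*, *Retn* and *Cfd* had 0 counts in all 6. Its log2 fold change of -0.29 did not pass the test (edgeR adjusted p = 0.0851). The endocytic receptor gene *Lrp1*, another gene of lipoprotein uptake, was at 823, 1411 and 864 CPM in the Ctrl replicates and at 752, 645 and 727 CPM in the AclyM-KO replicates, so that Ctrl replicate 2 stood well above every other library. It was lower in AclyM-KO (-0.55 on the log2 scale, edgeR adjusted p = 0.00982), and the cause of the high library was not tested. *Lipa*, the gene of the lysosomal lipase that breaks down lipids taken up with lipoproteins, was as abundant as *Cd36* by counts, with 2166 ± 79.5 CPM in Ctrl and 2302.5 ± 32.2 CPM in AclyM-KO (SD, n = 3 each, 0.088 on the log2 scale, edgeR adjusted p = 0.0812).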
